A study of Arabidopsis thaliana with 27 samples.

Results

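The gibberellin 2-oxidases of Arabidopsis thaliana were described over the dormant seed samples of the series. The members were taken by name and not by their values: GA2OX1 (AT1G78440_at), GA2OX2 (AT1G30040_at), GA2OX3 (AT2G34555_at), GA2OX4 (AT1G47990_at), GA2OX6 (AT1G02400_at), GA2OX7 (AT1G50960_at) and GA2OX8 (AT4G21200_at), where each identifier is the gene's locus with a suffix of the chip. All 7 are present among the 21313 genes of the deposited table. The seeds were of the accession Cvi (Cape Verde Islands), freshly harvested and dormant (D), and neither a mutation nor a treatment other than imbibition in water distinguished the groups. The 9 sample groups, each with 3 replicate arrays, were non-dissected dry seeds, and 2 compartments dissected from imbibed seeds 3, 7, 12 or 24 hours after sowing (HAS). The endosperm is the living layer around the embryo. The MCE is its micropylar and chalazal part and not the whole layer, and the RAD is the radicle with the hypocotyl. A kit served for RNA from the RAD, while a hot borate procedure was used on the MCE and on dry seeds. Isolation method and tissue therefore cannot be told apart in any comparison of the RAD with the MCE or with dry seeds. Only D seeds were analysed here.

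Gibberellins are the hormones that promote seed germination, and the pool of active gibberellin in a tissue is set by synthesis and by inactivation. Gibberellin 2-oxidases are dioxygenases that hydroxylate the gibberellin skeleton at the second carbon, which makes the hormone inactive. GA2OX1, GA2OX2, GA2OX3, GA2OX4 and GA2OX6 act on the class with the shorter carbon skeleton, to which the active gibberellins and their immediate precursors belong, whereas GA2OX7 and GA2OX8 act on earlier precursors with the longer skeleton. In seeds, 2-oxidases are known as a brake on germination, for example in darkness.

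Each value is the log2 expression value of 1 gene on 1 Affymetrix ATH1 array, as normalized by the authors. A gene whose 3 arrays of a sample averaged above 5 was taken as expressed there. Because each gene has its own probes, levels were compared between samples for the same gene and not between genes. In the D samples, 1 of the 7 members was expressed in dry seeds, in the MCE at 3 HAS and in the RAD at every time point, and 2 of 7 in the MCE at 7, 12, and 24 HAS. Among all genes the share expressed was between 45.7% and 49.0% per sample. The expressed member was GA2OX2 throughout, joined in the later MCE by GA2OX6. GA2OX3 came closest of the others, with sample means above 4.5 at 12 and 24 HAS in the RAD, and the means of GA2OX1, GA2OX4, GA2OX7 and GA2OX8 were below 4 in all 9 samples.

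**Figure D1:**
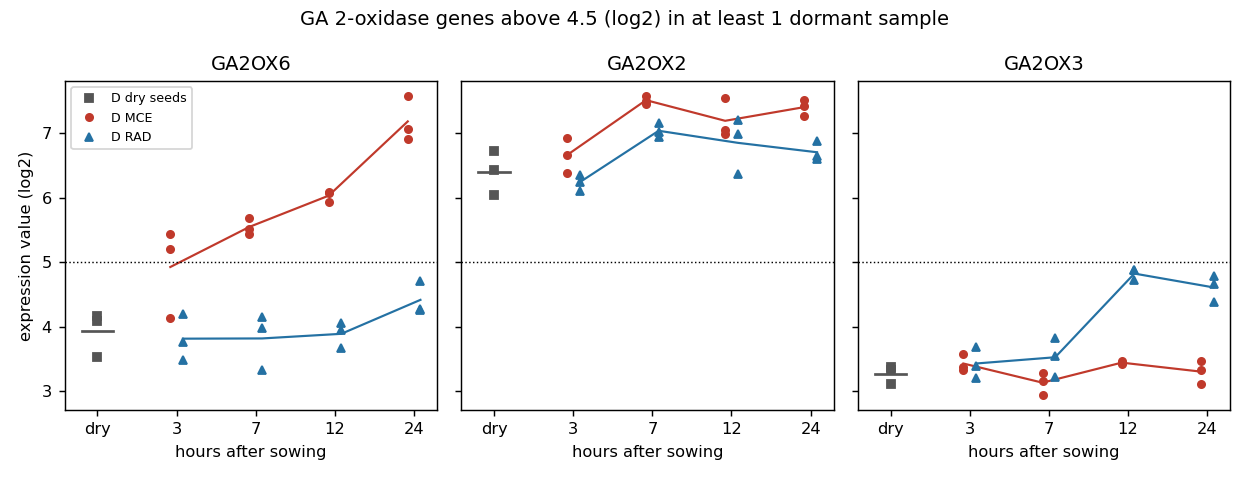
Log2 expression values of GA2OX6, GA2OX2 and GA2OX3 on each of the 27 D arrays, at evenly spaced time points (HAS on the horizontal axis). Points are arrays, lines and the short bar are means of 3 arrays, and the dotted line is the value of 5 above which a gene was taken as expressed. GA2OX6 climbs in the MCE to a mean of 7.18 while the RAD stays at or below 4.42, GA2OX2 is above 5 on all 27 arrays, and GA2OX3 is high only in the later RAD samples, at 4.82 and 4.61.

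GA2OX6 was the member with the widest range of sample means, 3.36 on the log2 scale. In dry seeds its 3 arrays were at 4.17, 4.09 and 3.53. In the MCE the arrays were at 4.13, 5.44 and 5.20 at 3 HAS, at 5.69, 5.43 and 5.52 at 7 HAS, at 6.08, 5.93 and 6.07 at 12 HAS, and at 7.06, 6.91 and 7.57 at 24 HAS. The lowest array of the MCE at 3 HAS, replicate 1, lay within the range of dry seeds, and from 7 HAS on every MCE array was above 5. In the RAD they were at 3.77, 4.20 and 3.48 at 3 HAS, at 3.97, 4.15 and 3.34 at 7 HAS, at 3.94, 3.66 and 4.06 at 12 HAS, and at 4.71, 4.28 and 4.25 at 24 HAS. No RAD array reached 5, and only the RAD at 24 HAS stood above dry seeds without overlap. In the order of the 9 samples, the MCE at 24, 12 and 7 HAS followed each other with gaps beyond the spread of the arrays, the MCE at 3 HAS overlapped with its neighbours on both sides, and dry seeds and the RAD at 12, 7 and 3 HAS could not be separated.

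Between 3 and 24 HAS, GA2OX6 rose in the MCE by 2.25 (SE 0.26) on the log2 scale, which is 4.77-fold (95% interval 3.29 to 6.92), with a limma adjusted p of 1.17e-07. A difference was called where the adjusted p over all genes was below 0.05 and the means, with those below 4 raised to 4, differed at least 2-fold. By this rule GA2OX6 was the 1 member of 7 called in the MCE from 3 to 24 HAS, against a background of 10.1% of all genes called in that comparison, so that the count alone did not set the members apart. In the RAD over the same time GA2OX6 differed by 0.60 (adjusted p = 0.0729, limma), although its arrays at 24 HAS were above those at 3 HAS. The change from 3 to 24 HAS differed between the compartments by 1.65 (SE 0.37, adjusted p = 0.00326, interaction in limma), being larger in the MCE.

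In the MCE the estimate for GA2OX6 was above 0 at each step. The steps from 3 to 7 HAS and from 7 to 12 HAS were 0.62 and 0.48 (adjusted p = 0.0821 and 0.286, limma) and did not pass the test. The step from 12 to 24 HAS was 1.15, or 2.22-fold (95% interval 1.53 to 3.22, adjusted p = 0.00874). This made GA2OX6 the 1 of 7 members called at that step, at which 1.10% of all genes were called. Without replicate 3 of the MCE at 24 HAS, the highest array, the step was 0.95 with an adjusted p of 0.0761 and was no longer called. The methods' t-test, applied to the 6 arrays of this step alone, called it without adjustment, and after Benjamini-Hochberg adjustment that test called 0 of all genes at this step.

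At each time point GA2OX6 was more abundant in the MCE than in the RAD, and the difference widened with time. It was 1.11 at 3 HAS (adjusted p = 0.00141), 1.73 at 7 HAS (5.02e-06), 2.14 at 12 HAS (1.86e-07) and 2.76 at 24 HAS (2.30e-09), all from limma. The RAD means at 7 and 12 HAS were below 4, and with these raised to 4 the MCE was 2.92-fold and 4.08-fold higher, while at 24 HAS, where the RAD mean was 4.42, it was 6.79-fold higher. The difference at 3 HAS was not called, because it was 0.92 after raising the RAD mean to 4, and the arrays of the compartments overlapped. Without replicate 1 of the MCE at 3 HAS it was 1.51 and was called. At 7, 12, and 24 HAS GA2OX6 was in each case the 1 member of 7 called, against 13.0%, 13.3% and 13.3% of all genes, and at 3 HAS 0 of 7 members were called by limma with 2 of 7 at an unadjusted p below 0.05, against 8.73% of all genes. The methods' t-test made the same 3 calls over these 4 comparisons. GA2OX6 is also on a list of endosperm genes of dormant seeds that the study chose partly on these arrays, so that its direction here is not independent of that choice.

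The endosperm marker EPR1, a gene of an extensin-like cell wall protein, separated the compartments at each time point, with means of 13.7 to 13.8 in the MCE and 6.44 to 7.27 in the RAD, and stood at 12.9 in dry seeds. Summed on the linear scale, the 3 endosperm markers measured reached 11852 to 15606 on the MCE arrays, 124 to 227 on the RAD arrays and 7383 to 7549 in dry seeds. On the MCE arrays and in dry seeds this sum was mostly EPR1, so that it adds little to the values of EPR1 alone. Of the other endosperm markers, EXPA2, an expansin, had means below 5 in every sample. MAN7, an endo-beta-mannanase, rose in both compartments, from 4.32 to 8.63 in the MCE and from 4.87 to 6.51 in the RAD, and was not higher in the MCE at 3 HAS. Of 6 radicle markers measured out of 7 listed, 2 were expressed in every RAD sample (SCR and BBM) and 1 in the MCE (SCR). The summed level of the radicle markers was 368 to 445 in the RAD and 145 to 380.1 in the MCE, where it was mostly SCR. BBM had means of 5.82 to 6.98 in the RAD and 3.51 to 3.77 in the MCE. The means of PLT1, PLT2, SHR and MP were below 5 in all samples. SCR, a factor of root radial patterning, rose in the MCE from 6.59 at 3 HAS to 8.04 at 24 HAS (adjusted p = 1.28e-08), when its RAD mean was 7.70, so that at 24 HAS it did not mark the RAD. Their part in the GA2OX values was not tested. In such samples of whole tissue, fewer cells of a type and less RNA per cell cannot be told apart.

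GA2OX2 was above 5 on all 27 arrays, between 6.03 and 7.57. In dry seeds the arrays were at 6.03, 6.71 and 6.42. In the MCE they were at 6.66, 6.92 and 6.38 at 3 HAS, 7.57, 7.45 and 7.50 at 7 HAS, 7.55, 6.98 and 7.04 at 12 HAS, and 7.27, 7.42 and 7.51 at 24 HAS. In the RAD the values were 6.10, 6.25 and 6.36 at 3 HAS, 6.94, 7.15 and 7.01 at 7 HAS, 6.36, 7.2 and 6.98 at 12 HAS, and 6.59, 6.64 and 6.87 at 24 HAS. In both compartments all arrays at 7 HAS were above all arrays at 3 HAS. When the 9 samples were ordered by their means, each sample overlapped with the next.

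The increase of GA2OX2 came early. From 3 to 7 HAS it rose by 0.85 (SE 0.19) in the MCE, or 1.81-fold (adjusted p = 0.00100), and by 0.80 (SE 0.19) in the RAD, or 1.74-fold (adjusted p = 0.00161, both limma). Neither reached 2-fold, so that 0 of 7 members were called from 3 to 7 HAS in either compartment, against 5.23% (MCE) and 6.13% (RAD) of all genes. In the MCE 2 members and in the RAD 1 had an unadjusted p below 0.05, and the methods' t-test called none there. No later step of GA2OX2 passed the test. At 24 HAS the MCE remained above its level at 3 HAS by 0.75, or 1.68-fold (adjusted p = 0.00235), and the RAD by 0.47 (adjusted p = 0.0510). These changes differed between the compartments by 0.28 (95% interval -0.27 to 0.82, adjusted p = 0.598).

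At 24 HAS GA2OX2 was higher in the MCE by 0.70, or 1.62-fold (95% interval 1.24 to 2.12, adjusted p = 0.00345). At 7 HAS the difference was 0.47 with an adjusted p of 0.0447, which was 0.0517 to 0.123 when any 1 of the 6 arrays was left out. At 3 and 12 HAS it was 0.42 and 0.34 (adjusted p = 0.0895 and 0.153, limma), in the same direction.

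GA2OX3 had its highest values in the other compartment. It was at 3.11, 3.37 and 3.33 in dry seeds and between 2.95 and 3.58 on the 12 MCE arrays. In the RAD its arrays were at 3.40, 3.68 and 3.21 at 3 HAS, 3.55, 3.22 and 3.82 at 7 HAS, 4.88, 4.88 and 4.72 at 12 HAS, and 4.79, 4.38 and 4.66 at 24 HAS. The 6 RAD arrays of 12 and 24 HAS were above all the other D arrays, and all were below the value of 5.

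From 7 to 12 HAS GA2OX3 rose in the RAD by 1.30 (SE 0.15), with a 95% interval of 0.99 to 1.60 (adjusted p = 4.23e-06), and from 3 to 24 HAS by 1.18 (adjusted p = 3.42e-07, both limma). Neither was called, since the means of 3.53 and 3.43 at the start were raised to 4, which left 0.82 and 0.61. In the RAD 0 of 7 members were therefore called from 7 to 12 HAS, against 0.807% of all genes. From 3 to 24 HAS 0 of 7 were called higher and 0 of 7 lower, against 7.35% and 4.82%. Without the adjustment 1 and 4 of 7 had a p below 0.05, and the methods' t-test with the 2-fold rule called none. Between the compartments GA2OX3 differed by -1.38 at 12 HAS (adjusted p = 2.43e-08) and by -1.30 at 24 HAS (adjusted p = 5.99e-08), being lower in the MCE. At 7 HAS its mean in the MCE was 0.39 below that of the RAD (adjusted p = 0.0355) with overlapping arrays, and without 1 array this p ranged from 0.00620 to 0.241. The change of GA2OX3 from 3 to 24 HAS differed between the compartments by -1.30 (SE 0.21, adjusted p = 0.000111, interaction in limma), opposite in sign to that of GA2OX6. For such a difference between changes the adjusted p alone made the call, with no fold rule. With means below 4 raised to 4 it was -0.61 for GA2OX3, less than 2-fold. GA2OX6 and GA2OX3 were the 2 of 7 members with such a difference, against 11.7% of all genes. By the adjusted p alone, 3 of 7 members differed from 3 to 24 HAS in the MCE and 2 of 7 in the RAD, against 35.6% and 38.2% of all genes, and 4 of 7 differed between the compartments at 24 HAS, against 39.4%.

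**Figure D2:**
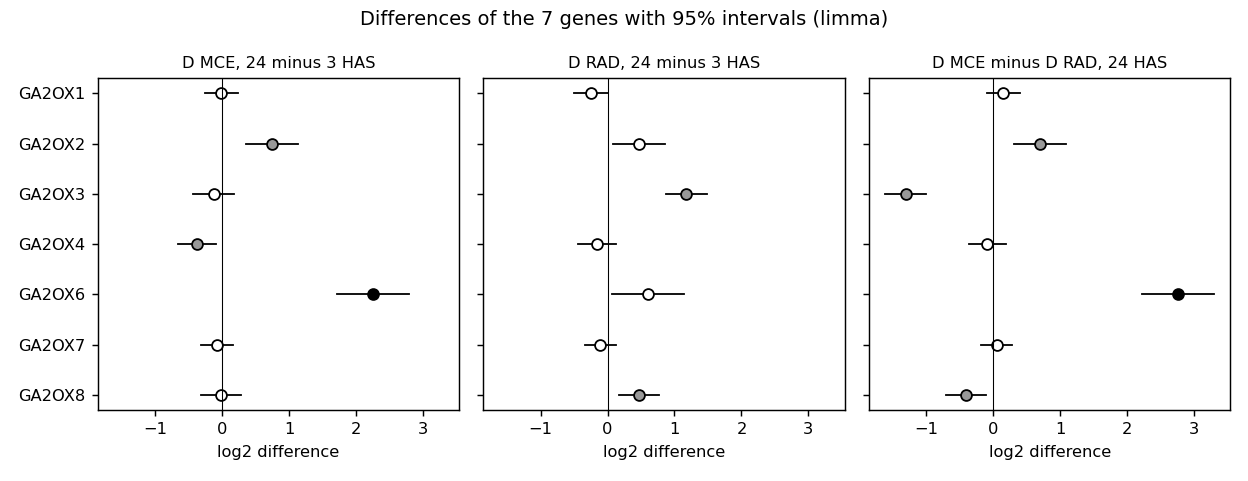
Log2 differences of the 7 genes with 95% intervals from limma, for 24 minus 3 HAS in each compartment and for D MCE minus D RAD at 24 HAS. Black points were called, grey points passed the adjusted p but not the 2-fold rule with means raised to 4, and white points passed neither. The black points are those of GA2OX6, at 2.25 in the MCE and 2.76 between the compartments, and GA2OX3 lies at 1.18 in the RAD and -1.30 between the compartments.

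The other members lay low on the scale. GA2OX4 was between 3.11 and 3.77 on all arrays, GA2OX8 between 2.47 and 3.41, GA2OX1 between 2.43 and 2.97, and GA2OX7 between 2.64 and 3.06. At such values the arrays limit what can be detected, so that a low value does not show that a transcript is absent. The study treats values below 5 as not separable from technical noise, so that small differences there may be noise. With means below 4 raised to 4, the differences of these genes vanish. GA2OX4 fell in the MCE from 3.6 at 3 HAS to 3.22 at 24 HAS, a difference of -0.38 (adjusted p = 0.0320) that passed the threshold in 1 of 6 fits without 1 array, with adjusted p up to 0.146. At 12 HAS its difference between MCE and RAD was -0.49 (adjusted p = 0.00488), and this passed without any 1 of the 6 arrays.

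GA2OX8 rose in the RAD from 2.65 at 3 HAS to 3.12 at 24 HAS, by 0.47 (adjusted p = 0.0114), and its arrays at 24 HAS were at 2.82, 3.12 and 3.41. Passing in 4 of 6 fits without 1 array, with adjusted p up to 0.111, this increase depended on single arrays. At 24 HAS the difference of GA2OX8 between MCE and RAD was -0.40 (adjusted p = 0.0305), and the arrays overlapped. Without 1 array its adjusted p ranged up to 0.227. GA2OX1 and GA2OX7 did not pass the test in any of the 15 comparisons, and their 95% intervals for the change from 3 to 24 HAS in the MCE ran from -0.26 to 0.24 and from -0.32 to 0.16.

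**Figure D3:**
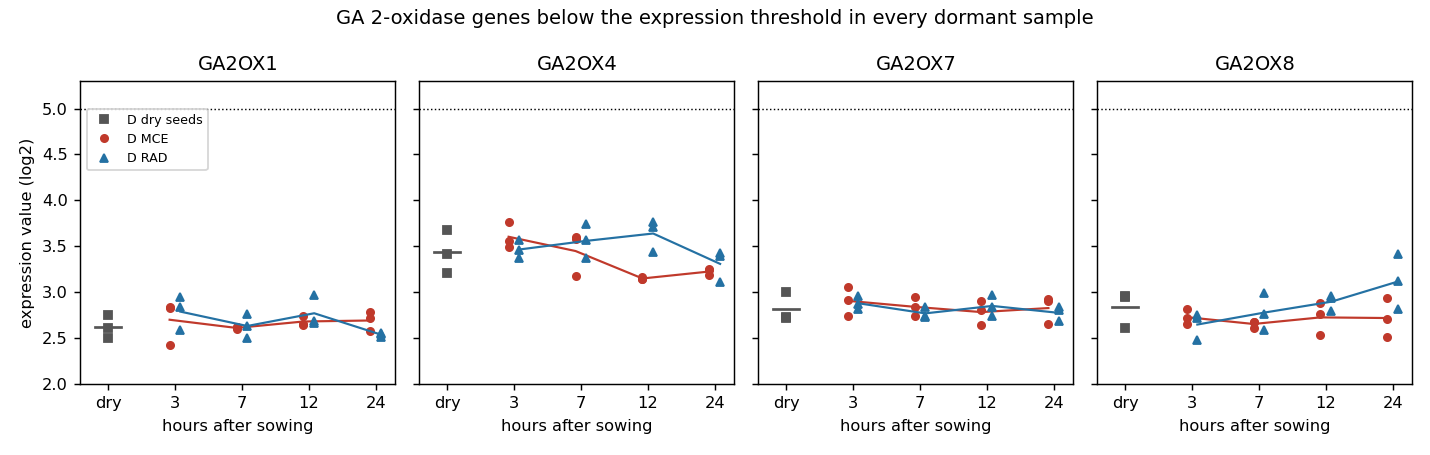
Log2 expression values of GA2OX1, GA2OX4, GA2OX7 and GA2OX8 on each of the 27 D arrays at evenly spaced time points. Points are arrays, lines and the short bar are means of 3 arrays, and the dotted line marks 5. All arrays of the 4 genes lie between 2.43 and 3.77, and the RAD arrays of GA2OX8 at 24 HAS reach 3.41.

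In the step from 7 to 12 HAS in the MCE and that from 12 to 24 HAS in the RAD, 0 of 7 members were called by limma, with 2 and 1 at an unadjusted p below 0.05, and 1.64% and 1.06% of all genes were called. The methods' t-test called no member at these steps either. The comparison from dry seeds to 3 HAS sets whole seeds against a dissected tissue, and for the RAD also the hot borate procedure against the kit. In it 0 of 7 members were called in the MCE, against 8.46% of all genes, and 0 of 7 in the RAD, against 7.88%. The corresponding numbers at an unadjusted p below 0.05 were 1 and 0, and the methods' t-test called none. GA2OX6 was the member that rose from dry seeds to the MCE at 3 HAS, by 0.99 (adjusted p = 0.00423), which became 0.92 with the mean of dry seeds raised to 4. Without replicate 1 of the MCE at 3 HAS this increase was 1.39 and was called, and without replicate 2 the adjusted p was 0.0506. Across all genes the median differences in these comparisons were between -0.08 and 0.01, and over the 7 members the median was -0.01 in the MCE from 3 to 24 HAS, 0.47 in the RAD from 3 to 24 HAS and 0.05 between the compartments at 24 HAS.

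Over the 9 sample means, GA2OX2 and GA2OX6 had a Pearson correlation of 0.736, GA2OX3 and GA2OX8 of 0.800, and GA2OX3 and GA2OX6 of -0.388. These are descriptions over 9 samples that share compartments and time points. Among the 8927 genes that were expressed in at least 1 sample and whose means ranged over at least 1, the profiles closest to GA2OX6 were those of DFL1 (AT5G54510, r = 0.994), an enzyme that conjugates auxin to amino acids, AT2G43620 (r = 0.989) and MYB12 (AT2G47460, r = 0.984), a transcription factor of flavonol synthesis. Of these genes 3.42% had an r above 0.9 with GA2OX6. The sample means of DFL1 had their lowest value in the RAD at 3 HAS and their highest in the MCE at 24 HAS, as had those of GA2OX6. For GA2OX2 the closest profiles were those of AT4G17830 (r = 0.979), KCS10 (AT2G26250, r = 0.973), an enzyme of fatty acid elongation, and DEK1 (AT1G55350, r = 0.971), a membrane-bound calpain protease of epidermis formation, and 1.09% of the genes had an r above 0.9.

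**Figure D4:**
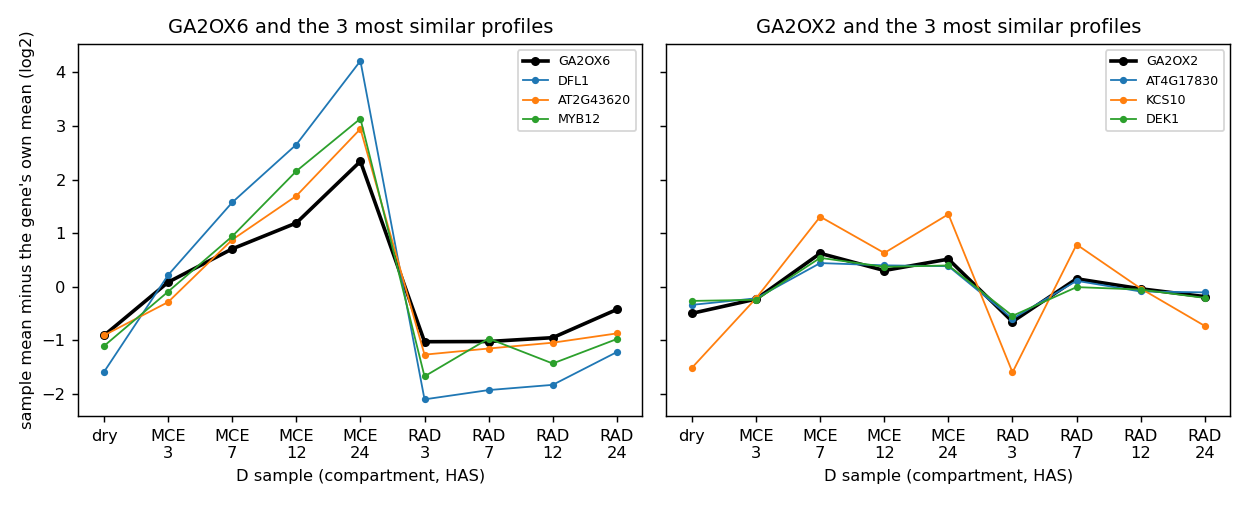
Sample means of GA2OX6 and of GA2OX2, each with the 3 genes of the most similar profile, as log2 values minus the gene's own mean over the 9 D samples. The horizontal axis lists dry seeds and each compartment and time point in HAS. GA2OX6, DFL1, AT2G43620 and MYB12 climb over the MCE samples and lie below their mean in the RAD, and the profiles around GA2OX2 have a step between 3 and 7 HAS in both compartments.

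Gibberellin is also inactivated by routes other than the 7 members, such as oxidation by cytochrome P450 enzymes. Of 5 genes measured out of 7 listed for gibberellin inactivation outside the members, 1 was called between the compartments at 24 HAS, where 13.3% of all genes were. This was CYP714A1 (AT5G24910), a cytochrome P450 that oxidizes early gibberellins, with a mean of 10.6 in the MCE and 3.80 in the RAD (difference 6.65 with the RAD mean raised to 4, adjusted p = 2.30e-20, limma). CYP714A1 was at 9.18 in dry seeds, at 10.6 to 11.6 in the MCE samples and at no more than 4.05 in the RAD samples. At 3 HAS the difference of CYP714A1 between the compartments was already 7.00, where that of GA2OX6 was 1.11, which passed the adjusted p and was not called. The change of CYP714A1 in the MCE from 3 to 24 HAS was -0.40 (adjusted p = 0.10, limma). A gene of the same list that is no member, AT5G58660, to which the reference table gives no symbol, was the 1 of 5 called in the MCE from 3 to 24 HAS, against 10.1% of all genes, where its mean went from 4.61 to 6.18 (difference 1.57, adjusted p = 1.94e-05), and in the RAD it fell and rose, with means of 5.78, 4.97, 4.85 and 6.33 at 3, 7, 12, and 24 HAS.

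Of 14 genes of gibberellin biosynthesis, 0 were called in the MCE from 3 to 24 HAS by limma, against 10.1% of all genes, and in the RAD 1 was called, lower, against 4.82%. This was KAO2, an ent-kaurenoic acid oxidase of the early pathway, which fell by 1.25 and was different between the compartments at 24 HAS, by -1.06 for MCE minus RAD. Within the time course the oxidases of the last steps moved in between. From 3 to 7 HAS GA20OX3 rose in the MCE from 4.92 to 7.88 (adjusted p = 2.09e-08) and in the RAD from 6.68 to 8.83 (adjusted p = 2.27e-06), and GA3OX1, which makes the active hormone, rose in the RAD from 3.80 to 7.94 (adjusted p = 1.23e-12). From 7 to 12 HAS both fell in the RAD, GA20OX3 to 6.50 and GA3OX1 to 6.17 (adjusted p = 1.14e-05 and 2.09e-05, limma). At this step GA2OX3 rose in the RAD. In the MCE GA20OX3 fell as well, from 7.88 to 6.28 (adjusted p = 0.000472), where GA2OX3 did not pass the test, and GA3OX1 stayed between 3.88 and 4.33.

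**Figure D5:**
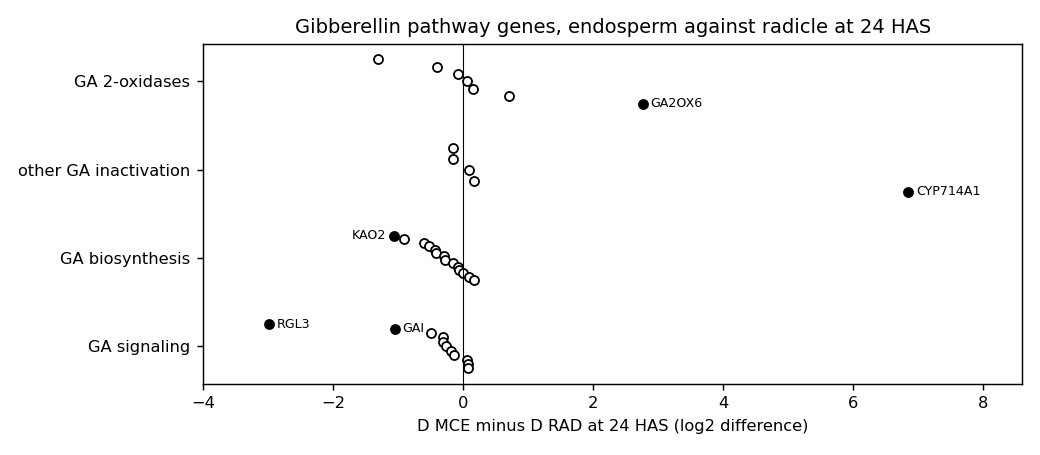
Log2 difference of D MCE minus D RAD at 24 HAS for the 7 GA 2-oxidases, 5 other genes of GA inactivation, 14 of GA biosynthesis and 11 of GA signaling. Each point is a gene, filled and named where called (adjusted p below 0.05 and at least 2-fold with means raised to 4). GA2OX6 at 2.76 and CYP714A1 at 6.84 (plotted without raising means to 4) are the called genes on the MCE side, and KAO2, GAI and RGL3 those on the RAD side.

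Of 11 genes of gibberellin signaling, at 24 HAS the MCE had 0 called higher and 2 lower than the RAD, the DELLA repressors RGL3, at 5.02 against 8.01, and GAI, at 8.91 against 9.96. These 2 of 11 stand against 13.3% of all genes. From 3 to 24 HAS, 3 of 11 were called in the MCE, 2 higher and 1 lower, against 10.1% of all genes, and in the RAD 2 higher and 1 lower, against 7.35% and 4.82%. RGL2, a DELLA repressor of seed germination, was called in both, with an increase of 2.09 in the MCE and 1.96 in the RAD. SCL3, which counteracts DELLA proteins, fell by 1.72 in the MCE and by 3.05 in the RAD.

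Finally, 4 transcription factors known in Arabidopsis to raise the transcript of a 2-oxidase were each set beside 1 such gene, which need not be the only one. Whether a factor acts on that gene in these seeds was not tested, and the arrays measure transcripts and not proteins. The study ran its germination assays in continuous light and not in darkness. PIF1, the phytochrome-interacting factor known to raise GA2OX2 in imbibed seeds in darkness, had means of 6.86 in dry seeds, 7.07, 8.89, 8.17 and 8.78 in the MCE and 6.68, 7.56, 6.77 and 7.42 in the RAD, each in the order of time. From 3 to 7 HAS PIF1 rose by 1.81 in the MCE (adjusted p = 1.90e-09) and by 0.88 in the RAD (adjusted p = 6.36e-05), the step in which GA2OX2 rose in both, and at 24 HAS it was higher in the MCE by 1.36 (adjusted p = 4.37e-08). The 3-to-24-HAS change of PIF1 differed between the compartments by 0.97 (adjusted p = 0.00307), where that of GA2OX2 differed by 0.28 and did not pass.

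AGL15, a MADS domain factor that activates GA2OX6, was not expressed in any of the 9 samples and had its lower values in the compartment in which GA2OX6 was high. At 24 HAS its MCE mean was 3.59 and its RAD mean 4.64 (difference -1.04, adjusted p = 7.26e-06), which was not called with the MCE mean raised to 4. CBF1, a cold-response factor known to raise GA2OX3, rose from 3 to 24 HAS in both compartments, from 4.29 to 5.63 in the MCE (adjusted p = 8.80e-05) and from 3.99 to 5.54 in the RAD (adjusted p = 1.10e-05), and GA2OX3 rose in the RAD and not in the MCE. DDF1, a relative of CBF1 that activates GA2OX7 under salt stress, had means between 2.93 and 3.14, and GA2OX7 between 2.77 and 2.90. Regulation of the members by these factors was not tested.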

How the data were processed

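The authors normalized the 27 chips together with further chips by RMA (background correction, quantile normalization, median polish) with a custom chip definition file giving 1 value per gene, removed control probes, and deposited log2 values, which were used as they are. No column was left out. A TAIR10.1 reference table gave names to 21205 of 21313 genes. Replicate arrays correlated at 0.987 to 0.996, no 2 were identical, and 9730 to 10478 genes were above 5 per array; the number of arrays limits the precision, and the labels name 3 plant replicates without tying them to arrays, so that p-values measure the spread between these arrays.

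limma was fitted to all arrays in 9 groups (18 residual degrees of freedom, prior 7.25), and p-values were adjusted by Benjamini-Hochberg for all genes in each of 15 comparisons. The floor of 4 and the threshold of 5 follow the study, whose methods name a t-test and no single fold. The 2-fold rule was chosen here, whereas the study used 3-fold for most of its gene sets. The methods' t-test with the 2-fold rule was an alternative. Other alternatives were other floors and folds, other variance models, a filter on dim genes, other scalings and the omission of each array. Scripts were tested on simulated data.

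The members and gene lists were chosen with earlier results of these data known. Named are the 7 members, the 3 genes of closest profile for each expressed member, up to 3 genes per list with the largest called difference, and the 4 regulators; EPR1 and the other markers check the compartments, and 1 radicle marker is not reported here.

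Replicates carry numbers 1 to 3 in the labels. Deviations of same-numbered arrays correlated above 0.1 for every number in 2 of 36 pairs of groups, both in the D MCE (7 with 12 HAS, lowest 0.210, and 12 with 24 HAS, lowest 0.211), which the numbers pair by this rule. Fits were made in limma 3.58.1 (R 4.3.3), and figures in Python 3.11.15 using pandas 2.3.3, numpy 2.4.6 and matplotlib 3.10.9.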

Additional observations from a re-analysis of the deposited data

Results flagged for a closer look

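For 2 members the change from 3 to 24 HAS differed between the compartments by a test of the difference itself. For GA2OX6 it was larger in the D MCE than in the D RAD by 1.65 (adjusted p = 0.00326, limma interaction), and without any 1 of the 12 arrays concerned the difference was 1.26 to 1.91. For GA2OX3 the difference was -1.30 (adjusted p = 0.000111), with the increase in the D RAD, and it was -1.43 to -1.19 without 1 array. All GA2OX3 arrays were below 5, where the study treats values as not separable from technical noise. With means below 4 raised to 4 its difference was -0.61. RNA isolation differed between the compartments, and its part in these differences cannot be told apart from that of the compartment.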

How the results depend on the processing

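No alternative turned the direction of a difference of a member that was called or passed the adjusted p, although small differences that did not pass changed sign under some. Interactions were called by the adjusted p alone. Of 7 calls, 5 were made under every alternative in which they were tested. These were GA2OX6 in the D MCE from 3 to 24 HAS and between the compartments at 12 and 24 HAS, and the interactions of GA2OX6 and GA2OX3. The alternatives with a t-test, another fold rule or another floor were not applied to interactions. Of 14 alternatives besides omissions, the GA2OX6 interaction was tested under 7 and the GA2OX3 interaction under 6. With means below 4 raised to 4, the GA2OX3 interaction was -0.61, less than 2-fold. Without a fold rule, the calls from 3 to 24 HAS were 3 in the D MCE in place of 1 and 2 in the D RAD in place of 0, those over the 6 steps 4 in place of 1, those between the compartments 11 in place of 3, and those from dry seeds 1 in place of 0. Without the floor there was 1 call in the D RAD from 3 to 24 HAS, 2 over the 6 steps and 6 between the compartments, the additional calls being GA2OX3 and, at 3 HAS, GA2OX6. Calls over the 6 steps were 0 at a 3-fold rule and 0 by the methods' t-test after Benjamini-Hochberg adjustment, and 0 to 1 without 1 array. GA2OX6 at 7 HAS was not called between the compartments at 3-fold or with a floor of 5. From dry seeds to 3 HAS there was 1 call, GA2OX6, after quantile normalization applied again, and 0 to 1 without 1 array. Between the compartments there were 4 calls in place of 3 after quantile normalization again and with arrays centred on their medians, the addition being GA2OX6 at 3 HAS. Without D RAD 24 HAS replicate 1, GA2OX8 made 3 interactions in place of 2 (-0.63, adjusted p = 0.0489). With only genes above 5 in at least 1 sample there was 1 interaction in place of 2, since GA2OX3 was then not tested. GA2OX3 was expressed in 2 samples at a threshold of 4.5. A replicate block, over all arrays or within each compartment (the latter chosen after seeing the data), changed no count of calls, which remained 1, 0, 1, 3, 0 and 2. Values below 4, where most members lie, and 3 arrays per group limit what could be detected.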
